A study of Mus musculus with 12 samples.

Results

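The genes described here control muscle growth through myostatin and the insulin-like growth factors (IGF). There were 10 of them among the 17752 genes with an expression value, chosen by gene name: Mstn, Fst, Acvr2b, Acvr1b, Smad3, Igf1, Igf1r, Igf2, Igfbp5 and Mtor. They were followed by RNA-seq in extensor digitorum longus (EDL), a fast-twitch hind limb muscle, in 4 groups of 3 libraries each, 12 libraries in all. The groups were sedentary or trained animals whose genotype was labelled Ctrl or Nrip1KO, called WT and strNrip1-/- below. All were male mice carrying the floxed Nrip1 allele, from floxed C57BL/6J mice crossed with a Cre line given as C57BL/6JN. In the strNrip1-/- mice a muscle creatine kinase (MCK) promoter drove Cre recombinase and so targets both heart and skeletal muscle, and the WT controls were littermates without Cre. Training was voluntary wheel running. Trained and sedentary mice both began at 8 weeks of age and stayed in their condition for 8 weeks. Mice that ran less than a set distance per night after the first week were removed as non-runners. Wheels were taken out of the cages before any endpoint was measured. The study asked which genes respond to loss of RIP140, the nuclear receptor corepressor encoded by Nrip1, and how training bears on them. Expression was given as FPKM, fragments per kilobase of transcript scaled by library depth, so levels can be compared between genes. Comparisons between libraries rest on how the depth was scaled, which is not stated.

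Myostatin is a secreted member of the TGF-beta family, made by muscle fibers, that restrains muscle growth. It binds the type II activin receptors and then a type I receptor, which phosphorylates Smad2 and Smad3, and these enter the nucleus with Smad4. Follistatin binds myostatin and activins outside the cell and blocks them. IGF-I and IGF-II act in the opposite direction through the IGF-I receptor, insulin receptor substrates, Akt and mTOR, a kinase that promotes protein synthesis, and IGF binding proteins set how much ligand reaches the receptor.

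Nrip1, the gene deleted in this model, went against the labels. Nrip1 (ENSMUSG00000048490, chromosome 16, 76287400 to 76373827, minus strand, GRCm38) was at 3.33 ± 0.689 FPKM in the sedentary libraries labelled WT and at 15.5 ± 0.680 in those labelled strNrip1-/- (mean ± SD, n = 3 each, as throughout). In the trained libraries it was at 3.62 ± 1.12 FPKM in those labelled WT and at 17.4 ± 3.02 in those labelled strNrip1-/-. It was called higher in labelled strNrip1-/- in both, 4.24-fold in sedentary (limma adjusted p = 0.000277) and 4.41-fold in trained muscle (limma adjusted p = 0.000208). By design Cre removes exon 4, which holds the whole coding sequence, and leaves the exons before it, so RNA from those exons could still be counted. A gene-level value does not show which part of the gene the fragments came from, and whether such RNA or an exchange of labels lies behind these values was not tested. The libraries are therefore named by their labels throughout. The libraries corresponded to an estimated 20.2 M to 29.5 M fragments, and 1 FPKM on a gene of 2 kb rested on 33.2 to 48.3 fragments. The 8 markers of skeletal muscle fibers were abundant in every library. They summed to between 113573 and 139058 FPKM in labelled WT and between 86146 and 113555 in labelled strNrip1-/- libraries, and 1 of the 8 was called lower in each genotype comparison (Actn3). None of the other 9 marker lists held a gene called in any comparison. Their sums ran from 9.02 to 13.3 FPKM for satellite cells, 231 to 446 for tendon, 63.7 to 86.2 for endothelium, 18.7 to 32.7 for macrophages, 49.8 to 110 for Schwann cells and 386 to 972 for blood. Some groups did not overlap within these ranges. Endothelium was at 64.8 to 72.8 FPKM in WT sedentary and 72.9 to 86.2 in strNrip1-/- sedentary libraries. In trained libraries it was at 63.7 to 77.6 in labelled WT and 82.2 to 85.1 in labelled strNrip1-/-. Satellite cell sums were 11.2 to 11.7 in WT sedentary and 9.02 to 11.1 in strNrip1-/- sedentary libraries. Schwann cell sums were 77.1 to 110 in WT sedentary and 49.8 to 66.4 in WT trained libraries. Other markers set some libraries apart. The 6 slow-fiber markers summed to 229 FPKM in WT sedentary replicate 2, 213 in strNrip1-/- sedentary replicate 1 and 435 in WT trained replicate 2, against 47.6 to 123 in the other libraries. The 6 adipocyte markers summed to 116 FPKM in strNrip1-/- sedentary replicate 3, 76.9 in WT trained replicate 3 and 113 in strNrip1-/- trained replicate 3, against 12.4 to 48.6 elsewhere. They also differed by group: all 3 WT sedentary libraries, at 12.4 to 25.5, lay below every library of the other groups, which began at 35.1. Among the tested adipocyte markers the median log2 difference was 1.30 between genotypes in sedentary muscle and 0.81 for training in labelled WT. It was 0.23 between genotypes in trained muscle and -0.26 for training in labelled strNrip1-/-. In whole muscle, fewer cells of a type and less RNA per cell cannot be told apart.

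All 10 growth control genes were expressed above 0.5 FPKM in each of the 12 libraries. Igfbp5, which encodes an IGF binding protein, stood highest with a mean of 113 FPKM over the 12 libraries, and its lowest library, at 98.0, was above the highest library of the next gene, Acvr1b, at 30.9. Below it came Acvr1b at 21.7, Mstn at 17.8, Smad3 at 9.73, Mtor at 7.01, Igf2 at 4.97, Igf1 at 3.20, Igf1r at 2.53, Fst at 2.29 and Acvr2b at 1.21 FPKM. From Acvr1b down, the ranges of every pair of neighbours over the 12 libraries overlapped. Within libraries the order was steadier: Mstn was above Smad3 and Mtor above Igf2 in 12 of 12, Acvr1b above Mstn, Igf2 above Igf1 and Fst above Acvr2b in 11, Smad3 above Mtor and Igf1r above Fst in 9, and Igf1 above Igf1r in 6. The levels were steadiest for Igfbp5, with a coefficient of variation of 13.1% over the 12 libraries, and most variable for Acvr2b at 45.0%, Igf1 at 36.0% and Fst at 31.5%. The genes with the widest relative spread were thus 3 of the 4 with the lowest levels.

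**Figure D1:**
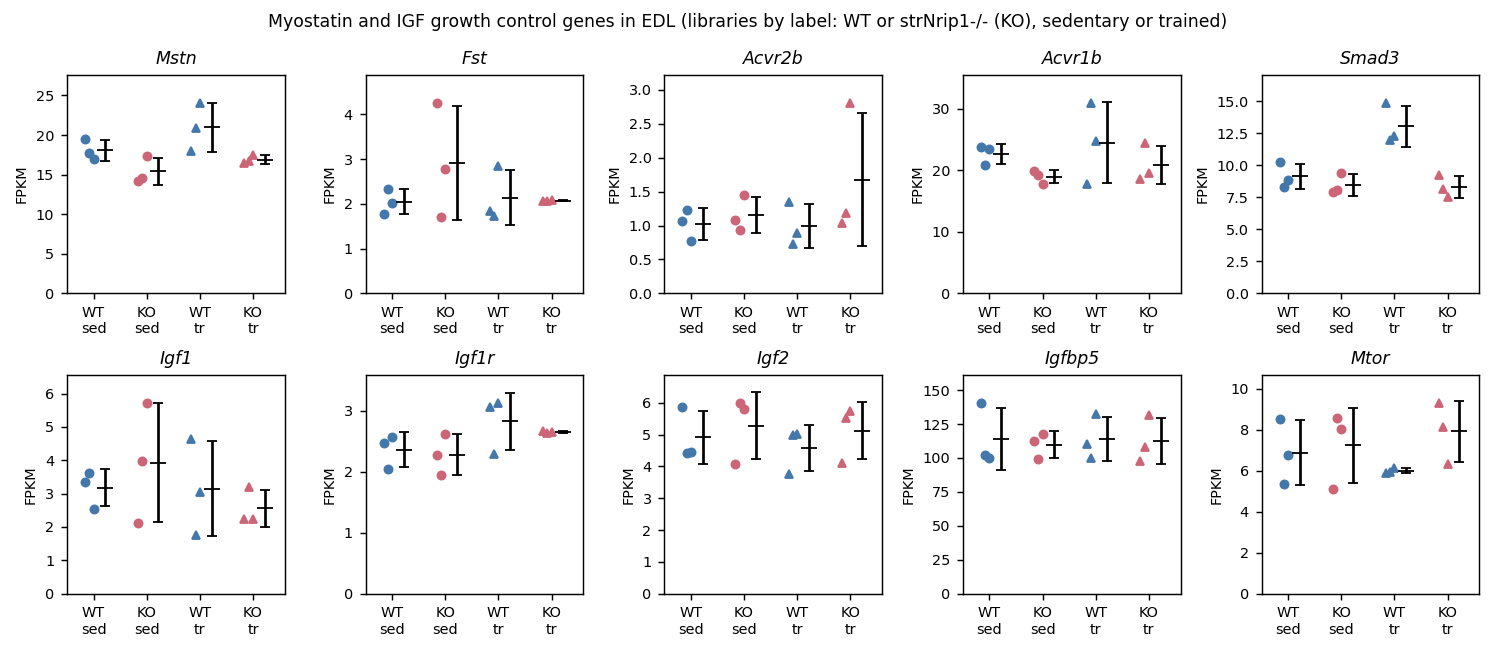
FPKM (y axis, linear from 0) of each of the 10 genes in the 12 libraries, by labelled group (WT or KO, for strNrip1-/-, sed for sedentary, tr for trained; circles sedentary, triangles trained). Points are libraries in replicate order, and bars to their right show mean ± SD of 3 libraries. Smad3 stands out in the WT trained libraries, at 11.9 to 14.8 FPKM against 7.50 to 10.2 in the other 9, while Igfbp5 stays between 98.0 and 140 in all 12.

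Of the 10 genes, 1 was called in a comparison, and some alternative settings lost that call. In trained muscle, Smad3, the transcription factor that carries the myostatin and activin signal to the nucleus, was lower in the libraries labelled strNrip1-/- than in those labelled WT, and it was the only one of the 10 called there, where 5.98% of all tested genes were called. A gene was called when limma gave an adjusted p under 0.05 (Benjamini-Hochberg over the 12744 genes tested) and a fold change above 1.2. None of the 10 was called between the labelled genotypes in sedentary muscle, where the background was 3.51%, nor by training in either genotype, nor for the interaction of genotype and training. With limma, training called 0 of the 12744 genes in either genotype and the interaction called 0 as well. At an unadjusted p under 0.05, the training comparison held 1061 genes (8.33%) in labelled WT and 1544 (12.1%) in labelled strNrip1-/-, and the interaction held 989 (7.76%). Among the 10 genes, that unadjusted limit was passed by 1 for training in labelled WT and 1 for the interaction (Smad3 in both), by 0 for training in labelled strNrip1-/-, by 0 between genotypes in sedentary muscle, where 16.3% of all genes passed it, and by 2 (Smad3 and Mstn) between genotypes in trained muscle, where 21.1% did. The comparisons share libraries, so they are not independent of each other.

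**Figure D2:**
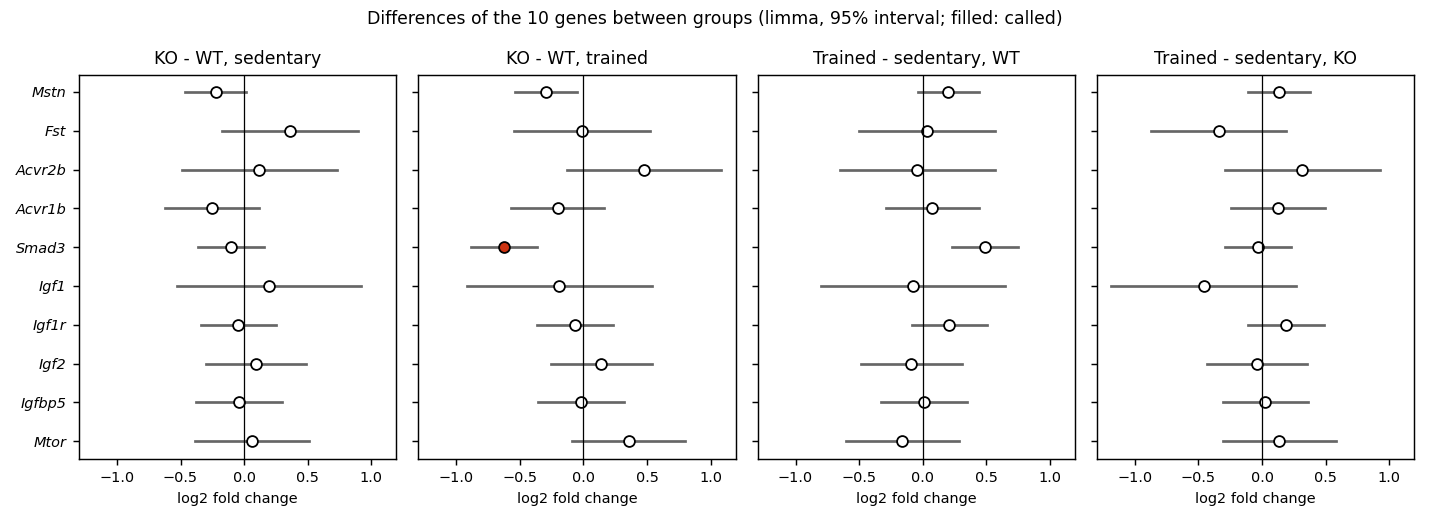
Log2 fold change (x axis, on the log2(FPKM + 0.5) scale) of the 10 genes in 4 comparisons, with KO for strNrip1-/-; lines are 95% confidence intervals from limma and filled points are called. Smad3 in the trained genotype comparison, at -0.62, is the only filled point, and the intervals of Igf1 and Acvr2b are the widest.

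Mstn (ENSMUSG00000026100) encodes myostatin itself and lies on chromosome 1, 53061640 to 53068079, plus strand (GRCm38, as for every gene here). In sedentary muscle it was at 19.5, 17.7 and 17.0 FPKM in the labelled WT libraries and at 14.3, 14.6 and 17.4 in the labelled strNrip1-/- libraries. The third strNrip1-/- library lay within the WT range, so these groups overlapped. In trained muscle Mstn was at 17.9, 20.9 and 24.0 FPKM in labelled WT and at 16.5, 16.7 and 17.5 in labelled strNrip1-/-, and here every WT library was above every strNrip1-/- library. Groups that do not overlap were found for 3 of the 10 genes in this comparison, against 27.3% of all genes tested. The mean was 18.1 ± 1.33 against 15.4 ± 1.69 FPKM in sedentary and 21.0 ± 3.05 against 16.9 ± 0.524 in trained muscle. On the log2 scale the difference was -0.22 in sedentary muscle (95% confidence interval, CI, -0.47 to 0.02, limma adjusted p = 0.352) and -0.29 in trained muscle (CI -0.54 to -0.05, adjusted p = 0.152), neither past the threshold. Over all tested genes, the trained difference varied with base composition: the 3184 tested genes with the lowest GC content had a median difference of -0.11 and the 3184 with the highest a median of 0.11. Mstn transcripts have 37.8% GC, and with the GC and length trends removed from each library its trained difference was -0.11 (limma adjusted p = 0.650). Between trained and sedentary muscle the differences were 0.20 in labelled WT (CI -0.04 to 0.44) and 0.13 in labelled strNrip1-/- (CI -0.11 to 0.38), with adjusted p of 0.678 and 0.669 by limma.

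The 250 bases before the Mstn start are shown because the downstream arm of its own pathway ends in Smad proteins, whose short recognition sequence CAGACA is in capitals (RefSeq, GRCm38.p6, chr1:53061390-53061639, plus strand, 5′ to 3′).
Mstn upstream: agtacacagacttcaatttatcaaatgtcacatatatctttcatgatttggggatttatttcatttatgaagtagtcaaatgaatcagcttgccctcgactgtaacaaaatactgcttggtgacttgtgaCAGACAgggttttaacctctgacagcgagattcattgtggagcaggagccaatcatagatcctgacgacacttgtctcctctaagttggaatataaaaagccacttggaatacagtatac
This copy begins 120 bases before the start. Windows from 250 bases before to 50 bases after the start were searched on both strands for CAGACA, the nuclear receptor hexamer AGGTCA, the E-box CAGCTG and the FoxO site GTAAACA, in 9 of the 10 genes (the window of Fst was not matched). Of all 32851 such windows, 21.0% held CAGACA, 16.3% AGGTCA, 16.3% CAGCTG and 3.65% GTAAACA, so a single match is common. Positions count from the RefSeq start of each window, which can differ from the gene bounds given here. The Igf1 window, 87860861 to 87861160, lies inside the bounds given for that gene. The Igf1r window, 67952007 to 67952306, lies before those given for Igf1r. Among the growth control genes, AGGTCA was found in the windows of Igf1 (first base at -161, overlapping a CAGCTG at -157) and Igf1r (-86, reverse strand). It was also in 1 of the 4 Igf2 windows (-234, reverse strand), and CAGACA was in another pair of Igf2 windows (-93 and -17). None of the 4 motifs was found in the windows of Acvr2b, Acvr1b, Smad3, Igfbp5 or Mtor.

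Fst (ENSMUSG00000021765, chromosome 13, 114452290 to 114458951, minus strand) encodes follistatin, the extracellular inhibitor of myostatin. It was at 1.78, 2.34 and 2.01 FPKM in WT sedentary libraries and at 4.26, 1.72 and 2.79 in strNrip1-/- sedentary libraries. The highest value belonged to strNrip1-/- sedentary replicate 1, one of the libraries with high slow-fiber markers, and the lowest of that group lay below all 3 WT libraries. The other libraries with high slow-fiber markers, WT sedentary replicate 2 and WT trained replicate 2, were at 2.34 and 1.72 FPKM. Trained libraries gave 1.84, 1.72 and 2.85 FPKM in labelled WT and 2.08, 2.06 and 2.08 in labelled strNrip1-/-, the latter nearly identical. The groups overlapped in all 4 comparisons. The sedentary genotype difference of 0.36 (CI -0.17 to 0.90, limma adjusted p = 0.535) was 0.09 without strNrip1-/- sedentary replicate 1, and the trained genotype difference was -0.01 (CI -0.55 to 0.52, adjusted p = 0.984). Exons of Fst overlap those of an antisense gene, Gm47040, and the library kit kept no strand, so reads of the pair cannot be separated.

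Acvr2b (ENSMUSG00000061393, chromosome 9, 119402118 to 119434995, plus strand) encodes the type II receptor that myostatin binds. It was the least abundant of the 10, at 1.07, 1.23 and 0.772 FPKM in WT sedentary, 1.08, 0.940 and 1.45 in strNrip1-/- sedentary, 1.35, 0.732 and 0.895 in WT trained and 1.04, 1.18 and 2.80 in strNrip1-/- trained libraries. The last value, from strNrip1-/- trained replicate 3, a library with high adipocyte markers, was well above the other 11. The other libraries with high adipocyte markers, strNrip1-/- sedentary replicate 3 and WT trained replicate 3, were at 1.45 and 0.895 FPKM. The trained genotype difference of 0.48 (CI -0.13 to 1.08, limma adjusted p = 0.367) was 0.13 without strNrip1-/- trained replicate 3. Groups overlapped in every comparison.

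Acvr1b (ENSMUSG00000000532, chromosome 15, 101174067 to 101213684, plus strand) encodes ALK4, a type I receptor that signals for activins and myostatin. Sedentary libraries held 23.8, 20.8 and 23.5 FPKM in labelled WT and 19.9, 19.2 and 17.8 in labelled strNrip1-/-. All 3 WT libraries were above all 3 strNrip1-/- libraries, the only one of the 10 genes of which this was true in sedentary muscle, where 20.7% of all genes did not overlap. The difference, -0.25 (CI -0.62 to 0.12), was not called (limma adjusted p = 0.532). Trained libraries spread more widely, with 17.8, 30.9 and 24.7 FPKM in labelled WT and 18.5, 24.4 and 19.6 in labelled strNrip1-/-, and the groups overlapped. The highest value came from WT trained replicate 2, the library with the highest slow-fiber markers, and the trained genotype difference of -0.20 (CI -0.57 to 0.16, limma adjusted p = 0.544) was -0.02 without WT trained replicate 2. The other libraries with high slow-fiber markers, WT sedentary replicate 2 and strNrip1-/- sedentary replicate 1, were at 20.8 and 19.9 FPKM.

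Smad3 (ENSMUSG00000032402) lies on chromosome 9, 63646767 to 63757994, minus strand. It was at 10.2, 8.33 and 8.85 FPKM in WT sedentary and at 7.93, 8.03 and 9.43 in strNrip1-/- sedentary libraries, which overlapped. WT trained libraries held 14.8, 11.9 and 12.3 FPKM, and strNrip1-/- trained libraries 9.21, 8.12 and 7.50. Every WT trained library was above every one of the other 9 libraries, whereas the strNrip1-/- trained libraries lay in or just below the sedentary range. The means were 9.14 ± 0.983 in WT sedentary, 8.46 ± 0.836 in strNrip1-/- sedentary, 13.0 ± 1.58 in WT trained and 8.28 ± 0.867 FPKM in strNrip1-/- trained muscle. In trained muscle the genotype difference was -0.62 on the log2 scale (SE 0.117, CI -0.88 to -0.36, limma adjusted p = 0.0114), a level in labelled strNrip1-/- of 0.650 times that in labelled WT (CI 0.543 to 0.777). In sedentary muscle it was -0.10 (CI -0.36 to 0.15, adjusted p = 0.759 by limma).

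Training gave a Smad3 difference of 0.49 in labelled WT (CI 0.23 to 0.75, unadjusted p = 0.00156, limma adjusted p = 0.402) and of -0.03 in labelled strNrip1-/- (CI -0.29 to 0.23, adjusted p = 0.946). It was the only one of the 10 genes without overlap between WT trained and WT sedentary libraries, against 14.3% of all genes. The interaction of genotype and training was -0.52 (CI -0.88 to -0.15), with an unadjusted p of 0.00958 and a limma adjusted p of 0.570, so a difference between the sedentary and the trained genotype comparison was not shown across all genes. The trained genotype call rested partly on strNrip1-/- trained replicate 3, without which the difference was -0.56 (limma adjusted p = 0.0567). With the values rescaled to the same sum per library it was -0.56 as well (adjusted p = 0.0664 by limma), and with GC and length trends removed it was -0.72 (adjusted p = 0.0245).

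Of the 6 fibroblast markers 0 were called in any comparison. They summed to 121 to 137 FPKM in WT sedentary, 148 to 169 in strNrip1-/- sedentary, 193 to 236 in WT trained and 160 to 205 in strNrip1-/- trained libraries, so the trained groups overlapped. Their median training difference was 0.27 in labelled WT and -0.06 in labelled strNrip1-/-, and their median trained genotype difference was -0.26. Their part in the Smad3 difference was not tested. Slow-fiber markers were highest in WT trained replicate 2, and without that library the Smad3 difference was -0.68 (limma adjusted p = 0.0170). With the 3 libraries of high adipocyte markers left out, an alternative chosen after seeing the data, it was -0.59 (adjusted p = 0.106 by limma).

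The 250 bases before the Smad3 start are shown because Smad3 was the gene called (RefSeq, GRCm38.p6, chr9:63757995-63758244, minus strand, 5′ to 3′); they hold none of the 4 motifs and so no capitals.
Smad3 upstream: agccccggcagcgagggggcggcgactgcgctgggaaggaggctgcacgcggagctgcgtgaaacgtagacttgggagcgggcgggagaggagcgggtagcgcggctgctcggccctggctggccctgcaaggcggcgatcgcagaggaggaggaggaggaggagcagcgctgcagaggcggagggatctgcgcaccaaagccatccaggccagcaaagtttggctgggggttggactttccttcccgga
The GC content of these bases was 69.2%, with 22 CG dinucleotides, against 38.4% and 3 in the bases shown for Mstn.

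The neighbours of Smad3 in the pathway were examined from a list of 19 activin and TGF-beta receptors, Smads and their ubiquitin ligases, of which 18 were tested (Acvr1c was below the limit of 0.5 FPKM). Smad3 is itself on the list and is counted below. The list was chosen with earlier results of these data known, so its counts are a description and no independent support. In trained muscle 4 of the 18 were called lower in labelled strNrip1-/- and 0 were called higher, against 2.77% of all genes called lower and 3.21% called higher. In sedentary muscle 0 of 18 were called. Called or not, 12 of the 18 had a lower and 6 a higher fitted level in labelled strNrip1-/- trained muscle, and the median difference was -0.09, against 0.01 over all tested genes. Besides Smad3, the genes called were Tgfbr1, Acvr2a and Bmpr2. Trained groups did not overlap for 5 of the 18 (these 4 and Smurf2, a ubiquitin ligase), or 27.8%, close to the 27.3% of all genes. All 4 calls were lost with the same sum per library (limma adjusted p = 0.0501 for Tgfbr1, 0.0664 for Smad3, 0.117 for Bmpr2 and 0.135 for Acvr2a) and with the 3 libraries of high adipocyte markers left out, and without strNrip1-/- trained replicate 3 only that of Tgfbr1 was kept.

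**Figure D3:**
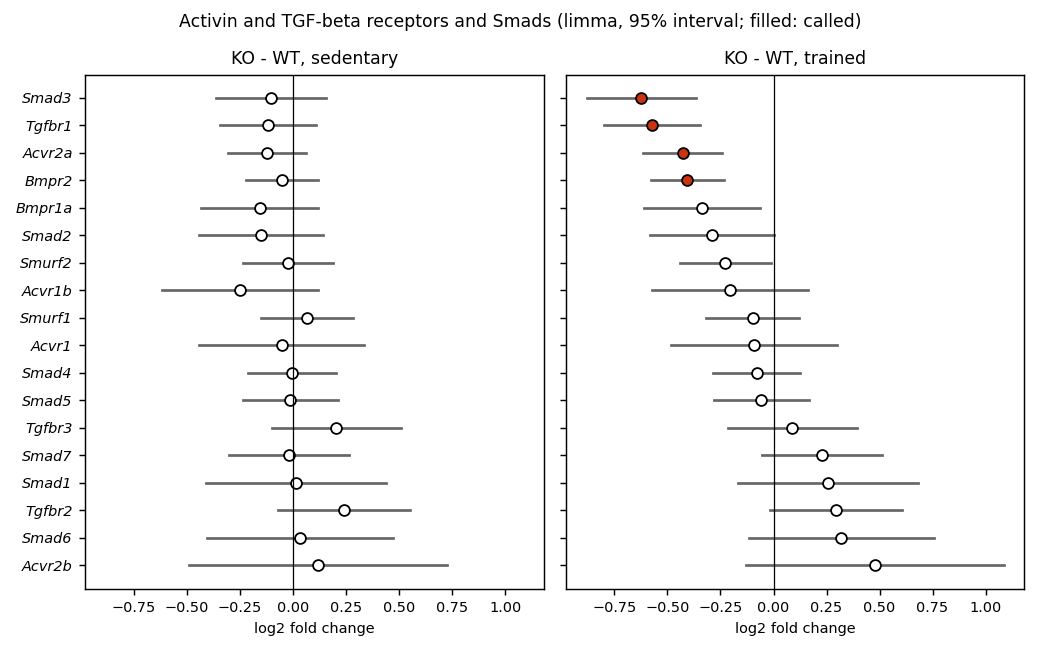
Log2 fold change (x axis, log2(FPKM + 0.5) scale) of 18 receptor and Smad genes between labelled strNrip1-/- (KO) and labelled WT, in sedentary (left) and trained (right) muscle. Lines are 95% confidence intervals from limma and filled points are called; the 4 filled points, all in trained muscle, are Smad3, Tgfbr1, Acvr2a and Bmpr2, between -0.62 and -0.41.

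Tgfbr1 (ENSMUSG00000007613, chromosome 4, 47353222 to 47414931, plus strand) encodes ALK5, the type I receptor for TGF-beta, which can also signal for myostatin. Trained libraries held 4.11, 4.67 and 4.07 FPKM in labelled WT and 2.61, 2.61 and 2.92 in labelled strNrip1-/-, while sedentary libraries held 3.27, 3.03 and 3.61 and 2.91, 2.82 and 3.30. As with Smad3, the WT trained libraries were the highest of the 12. The trained genotype difference was -0.57 (SE 0.103, limma adjusted p = 0.00895), and the call held without any single library. With the 3 libraries of high slow-fiber markers left out its limma adjusted p was 0.0596, and with the 3 of high adipocyte markers left out 0.0708.

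Acvr2a (ENSMUSG00000052155, chromosome 2, 48814109 to 48903269, plus strand) encodes the second type II activin receptor. It was at 3.94, 3.81 and 4.32 FPKM in WT trained and at 2.89, 2.86 and 2.83 in strNrip1-/- trained libraries. Here the strNrip1-/- trained libraries were the lowest of the 12, since WT sedentary libraries held 4.10, 4.02 and 3.72 and strNrip1-/- sedentary libraries 3.54, 3.55 and 3.64. The difference was -0.43 (SE 0.0841, limma adjusted p = 0.0140). It lost its call without WT trained replicate 3 (adjusted p = 0.0616), strNrip1-/- trained replicate 2 (0.0507) or strNrip1-/- trained replicate 3 (0.0578), and with GC and length trends removed it was -0.28 (limma adjusted p = 0.109).

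Bmpr2 (ENSMUSG00000067336, chromosome 1, 59763400 to 59879014, plus strand) encodes the type II receptor for bone morphogenetic proteins. It was at 5.41, 5.29 and 4.97 FPKM in WT trained, 3.93, 3.73 and 3.80 in strNrip1-/- trained, 4.37, 4.22 and 4.39 in WT sedentary and 4.01, 4.15 and 4.32 in strNrip1-/- sedentary libraries. WT trained libraries were again the highest and strNrip1-/- trained libraries the lowest. The trained difference of -0.41 (SE 0.0776, limma adjusted p = 0.0120) lost its call without WT trained replicate 1 (adjusted p = 0.0510), strNrip1-/- trained replicate 2 (0.0520) or strNrip1-/- trained replicate 3 (0.0517). With GC and length trends removed it was -0.24 (limma adjusted p = 0.151). Acvr2a and Bmpr2 transcripts had 41.1% and 39.6% GC, among the 3184 tested genes with the lowest GC content, whereas Smad3 had 54.7% and Tgfbr1 48.0%.

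Of a list of 19 ligands and extracellular inhibitors, Mstn and Fst among them, 14 were tested and 0 were called by limma in any comparison. At an unadjusted p under 0.05 there were 3 in sedentary muscle (Gdf11, Inha and Tgfb1) and 4 in trained muscle (the same 3 genes and Mstn) between genotypes, 0 and 1 for training in labelled WT and labelled strNrip1-/-, and 0 for the interaction. Under other settings a few were, each in a single setting. Gdf11, a close relative of Mstn, was called in trained muscle without WT trained replicate 2 (-0.70, limma adjusted p = 0.0358). Fstl1, a follistatin-like gene, was called there without strNrip1-/- trained replicate 1 (-0.41, adjusted p = 0.0303), and the inhibin subunit Inha with GC and length trends removed (-0.54, adjusted p = 0.0352 by limma). With all libraries and no correction, these trained genotype differences were smaller and uncalled. They were -0.53 for Gdf11 (limma adjusted p = 0.0975), -0.26 for Fstl1 (0.245) and -0.41 for Inha (0.0886). The activin subunits Inhba and Inhbb were listed at means of 0.394 and 0.360 FPKM, and Tll2, a protease that can activate latent myostatin, at 0.0160 FPKM, all below the limit for testing.

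On the IGF side, none of the ligands, the binding protein, the receptor or Mtor was called in any comparison. Igf1 (ENSMUSG00000020053, chromosome 10, 87858265 to 87937042, plus strand) encodes IGF-I, made in muscle as well as liver. It was at 3.34, 3.62 and 2.55 FPKM in WT sedentary and at 2.11, 3.98 and 5.70 in strNrip1-/- sedentary libraries. WT trained libraries held 4.63, 1.77 and 3.05 FPKM and strNrip1-/- trained libraries 2.24, 3.20 and 2.25. The extremes of the 12 libraries were strNrip1-/- sedentary replicate 3, with high adipocyte markers, and WT trained replicate 2, with high slow-fiber markers, and the groups overlapped throughout. Other libraries with high adipocyte markers were at 3.05 and 2.25 FPKM, and others with high slow-fiber markers at 3.62 and 2.11. Differences ran from -0.46 for training in labelled strNrip1-/- (CI -1.18 to 0.26, limma adjusted p = 0.617) to 0.20 between genotypes in sedentary muscle (CI -0.53 to 0.92, adjusted p = 0.848). The intervals for Igf1 were the widest of the 10 genes, and a training difference of -1.18 in labelled strNrip1-/- was still within them.

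Igf2 (ENSMUSG00000048583, chromosome 7, 142650766 to 142666816, minus strand) encodes IGF-II, an imprinted fetal growth factor. Its values were 5.87, 4.40 and 4.45 FPKM in WT sedentary, 4.08, 5.98 and 5.79 in strNrip1-/- sedentary, 3.75, 4.99 and 5.02 in WT trained and 4.10, 5.52 and 5.75 in strNrip1-/- trained libraries. Each group held both low and high libraries, and all groups overlapped. The genotype differences were 0.09 in sedentary (CI -0.30 to 0.48, limma adjusted p = 0.881) and 0.14 in trained muscle (CI -0.25 to 0.54, adjusted p = 0.720). Igf2 shares exons with Gm49394 on the same strand and with antisense Igf2os, so its level is uncertain.

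Igfbp5 (ENSMUSG00000026185, chromosome 1, 72857932 to 72874884, minus strand) was the most even of the 10. WT sedentary libraries held 140, 102 and 100.02 FPKM, strNrip1-/- sedentary 113, 99.2 and 118, WT trained 110 and 99.8 and 132, and strNrip1-/- trained 98.0, 108 and 131. The group means, 114 ± 22.7, 110 ± 9.66, 114 ± 16.5 and 112 ± 17.1 FPKM, differed by less than the spread between replicates. No difference exceeded 0.04 in size on the log2 scale in the 4 comparisons, and the 95% intervals of the genotype differences, -0.38 to 0.30 in sedentary and -0.36 to 0.32 in trained muscle, bound the change (limma adjusted p = 0.940 and 0.959).

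Igf1r (ENSMUSG00000005533, chromosome 7, 67952827 to 68233668, plus strand) encodes the receptor for IGF-I. It was at 2.47, 2.04 and 2.57 FPKM in WT sedentary, 2.27, 1.94 and 2.61 in strNrip1-/- sedentary, 3.06, 2.29 and 3.12 in WT trained and 2.67, 2.63 and 2.64 in strNrip1-/- trained libraries. All strNrip1-/- trained libraries were above all strNrip1-/- sedentary ones, though by a narrow margin, and it was the only one of the 10 genes without overlap in that comparison, against 16.9% of all genes. The training differences were 0.19 in labelled strNrip1-/- (CI -0.11 to 0.48, limma adjusted p = 0.617) and 0.21 in labelled WT (CI -0.09 to 0.51, adjusted p = 0.734). Genotype differences were -0.05 in sedentary and -0.07 in trained muscle (adjusted p = 0.921 and 0.837 by limma).

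Mtor (ENSMUSG00000028991, chromosome 4, 148448611 to 148557683, plus strand) was at 8.52, 5.34 and 6.79 FPKM in WT sedentary and at 5.12, 8.56 and 8.03 in strNrip1-/- sedentary libraries. In trained muscle it was at 5.92, 5.95 and 6.16 FPKM in labelled WT and at 9.29, 8.16 and 6.31 in labelled strNrip1-/-. The trained groups did not overlap, although the lowest strNrip1-/- library was close to the highest WT library, while the sedentary groups overlapped fully. The difference in trained muscle was 0.36 (CI -0.09 to 0.80, limma adjusted p = 0.358), and in sedentary muscle 0.06 (CI -0.39 to 0.51, adjusted p = 0.933).

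Other genes of the IGF arm came from 3 lists. Of 11 tested IGF ligands and binding proteins, 0 were called by limma in any comparison, with at most 2 at an unadjusted p under 0.05. Of 26 tested genes of the PI3K, Akt and mTOR pathway, 0 were called either, with at most 3 at that limit. Without WT trained replicate 1, the training comparison in labelled WT called Ddit4 (limma adjusted p = 0.00428) and Igfbp2 (0.0364). Of 9 receptors and adaptors, 1 was called in sedentary muscle (Grb14, higher in labelled strNrip1-/-, where 1.92% of all genes were called higher and 1.59% lower) and 2 in trained muscle (Grb14 higher, Grb10 lower). Over all 5 lists, 87 genes were named and 78 tested, with 1 called higher and 0 lower in sedentary muscle and 1 higher and 5 lower in trained muscle. That is 7.69% of the tested pathway genes in trained muscle, near the 5.98% of all genes.

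**Figure D4:**
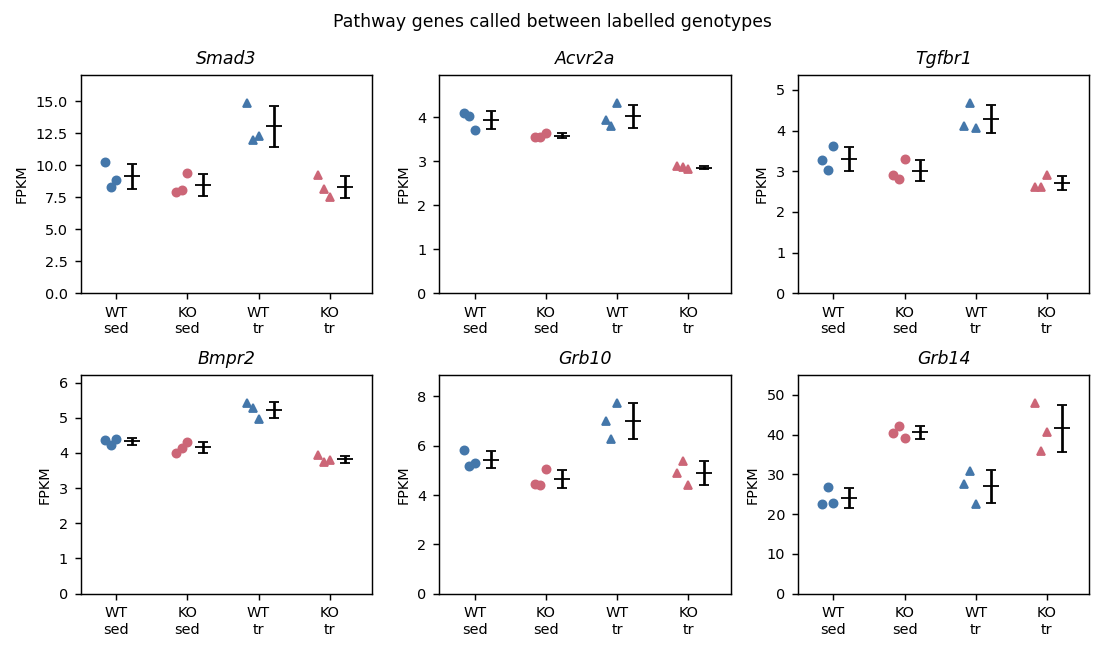
FPKM (y axis, linear from 0) of the 6 pathway genes called between labelled genotypes, by labelled group (WT or KO, for strNrip1-/-, sed or tr). Points are libraries in replicate order, and bars show mean ± SD of 3 libraries. Grb14 is higher in the KO libraries of both the sedentary and the trained groups, whereas the other 5 are lower in KO trained than in WT trained libraries.

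Grb14 (ENSMUSG00000026888, chromosome 2, 64912476 to 65024987, minus strand) encodes an adaptor that binds the insulin receptor and inhibits its signaling. It was at 22.5, 26.9 and 22.9 FPKM in WT sedentary and at 40.3, 42.2 and 39.1 in strNrip1-/- sedentary libraries. WT trained libraries held 27.7, 30.9 and 22.6 FPKM, and strNrip1-/- trained libraries 47.9, 36.0 and 40.8. All 6 strNrip1-/- libraries were above all 6 WT libraries. The difference was 0.74 in sedentary (SE 0.128, limma adjusted p = 0.00954) and 0.61 in trained muscle (SE 0.128, adjusted p = 0.0183), or 1.67-fold and 1.53-fold. The sedentary call was lost without WT sedentary replicate 1 (limma adjusted p = 0.0533). The trained call was lost without WT trained replicate 1 (0.05002) or 3 (0.0650), or without strNrip1-/- trained replicate 1 (0.0538) or 3 (0.0647). It was also lost with only the libraries of the comparison (limma adjusted p = 0.0704) and with the libraries of high adipocyte markers left out (0.175).

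Grb10 (ENSMUSG00000020176, chromosome 11, 11930508 to 12038683, minus strand) encodes a related, imprinted adaptor that inhibits insulin and IGF-I receptor signaling. It was at 6.99, 6.25 and 7.72 FPKM in WT trained and at 4.91, 5.39 and 4.41 in strNrip1-/- trained libraries. Sedentary libraries held 5.83, 5.17 and 5.30 FPKM in labelled WT and 4.46, 4.39 and 5.06 in labelled strNrip1-/-, with the labelled strNrip1-/- libraries the lower ones in both settings. The trained difference was -0.47 (SE 0.106, limma adjusted p = 0.0255) and the sedentary difference -0.21 (adjusted p = 0.365). The trained call was lost without WT trained replicate 1 (adjusted p = 0.0750) or 3 (0.100014), and without strNrip1-/- trained replicate 1 (0.0570) or 3 (0.108), by limma. It was also lost with the same sum per library (limma adjusted p = 0.182), the same nuclear sum (0.139) and only the libraries of the comparison (0.0798). With the libraries of high slow-fiber markers left out the limma adjusted p was 0.0550, and with those of high adipocyte markers left out 0.246.

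For Mstn, Igf1 and Igfbp5 the tested genes most alike over the 12 libraries were found by Pearson's r of log2(FPKM + 0.5), as a description. They were picked as the highest r in a search over all 12744 tested genes, which by itself favours high values. Whether they share regulation was not tested. The closest to Mstn were Spns2 (r = 0.946), Atrnl1 (0.899) and Trp53inp1 (0.885). Those closest to Igf1 were Cp (0.846), 1500011B03Rik (0.836) and Naa40 (0.830), and those closest to Igfbp5 were Inpp5b (0.877), Cdadc1 (0.869) and Mrtfb (0.864). Among the 10 genes themselves, the highest correlation was between Mstn and Smad3 (r = 0.659) and the lowest between Acvr1b and Igf1 (r = -0.515), over 12 libraries that include the 4 groups.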

How the data were processed

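RNA-seq was performed on EDL of 12 libraries from mice (total RNA, a kit that keeps no strand). According to the submitters' processing notes and the methods, Salmon 1.10.2 (mm10), tximport and DESeq2 1.44.0 were used by the authors. Expression was deposited as FPKM per gene and library. The authors' log2 fold changes and adjusted p-values for 4 comparisons were deposited beside them and were not used. Annotation release, FPKM function and gene filter are not given in the sources used here.

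Of 17752 genes, 17745 matched GENCODE M21 identifiers on GRCm38. Those averaging 0.5 FPKM or more (12744) were fitted as log2(FPKM + 0.5) with limma 3.58.1 (R 4.3.3), with 4 group means, 8 residual degrees of freedom, a mean-dependent prior and two-sided tests. Benjamini-Hochberg adjustment was within each comparison. This scale understates changes of low genes. The fit was tested on simulated data. Depth was estimated from the spacing of low FPKM in 1619 single-transcript genes, with 459 to 535 low values per library. Of these values, 99.1% to 99.6% per library fell no more than 0.15 from an integer fragment number (30% for random values). Depth and fragment length were fitted on the same values, so 30% is not the chance level of the fit. An FPKM of 0.0621 to 0.0902 on a 2 kb gene is worth 3 fragments, counting error only. Replicates are separate libraries; whether each is 1 animal was not stated by the labels, so p-values measure the spread between libraries. The growth control genes, pathway lists and marker lists were chosen with earlier results of these data known. Named were those 10 genes, Nrip1, each listed gene called (at most 4 a list) and the 3 genes most like Mstn, Igf1 and Igfbp5. Other pathway and marker genes (Gdf11, Inha, Tgfb1, Fstl1, Smurf2, Ddit4, Igfbp2 and Actn3) were named after their values were seen. H19, on 1 list, was not analysed here. Marker lists covered muscle fiber, satellite cell, fibroblast, tendon, adipocyte, endothelium, macrophage, Schwann cell, blood and slow fiber. Alternatives were other pseudocounts, filters, scalings, priors, GC and length correction, a replicate block, fewer groups and leaving out libraries.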

Additional observations from a re-analysis of the deposited data

How the results depend on the processing

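Limits: 3 libraries a group, no counts, and levels of 1 to 5 FPKM for 5 of the 10 genes leave wide intervals, so an uncalled difference is not an absence of change. The number of growth control genes called in trained muscle between genotypes was 0 instead of 1 (Smad3) with rescaling to the same sum, with rescaling to the same nuclear sum and with the 3 adipocyte-marked libraries left out (an alternative, like the slow-fiber one, chosen after seeing the data, with fewer samples by construction), and 0 to 1 with single libraries left out. The pathway genes called there, 6, became 3 with a mean of at least 5 FPKM (fewer genes tested), 1 with the same sum, 2 with the same nuclear sum, 2 with only the libraries of the comparison, 2 and 0 with the slow-fiber-marked and adipocyte-marked libraries left out, and 1 to 7 with single libraries left out: 1 without strNrip1-/- trained replicate 3 and 3 without WT trained replicate 3. In sedentary muscle the 1 pathway gene (Grb14) became 0 to 1 with single libraries left out. For training in labelled WT the count of 0 became 1 (Ddit4) with a mean of at least 5 FPKM, and 0 to 2 with single libraries left out, the 2 without WT trained replicate 1. The cause was not tested except where the alternative's construction gives it. The same sum per library shifted the median of all genes by -0.14 in the sedentary genotype comparison, 0.16 for training in labelled strNrip1-/- and 0.20 in the interaction. No pairing of libraries by replicate number was seen. Deviations of same-numbered libraries correlated between -0.10 and 0.24 in 18 pairs (median -0.0095). Those of differently numbered libraries correlated between -0.25 and 0.20 in 36 pairs (median -0.0030). Of the 12 libraries, 4 correlated best with their own number. With the replicate block, Smad3 kept its trained call (limma adjusted p = 0.0121), and the counts stayed at 1 and 6.

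Uncalled differences changed sign under some settings, and not only those near 0. With all libraries, Acvr2b was at 0.32 for training in labelled strNrip1-/- and Igf1 at 0.20 for the sedentary genotype difference. Both changed sign when a single library was left out. With rescaling to the same sum, reversed values were Mstn 0.15, Igf1r 0.16 for the interaction, Fst 0.036, Igfbp5 0.043 for the trained genotype difference, Smad3 0.14, Igf2 0.12 for training in labelled strNrip1-/-, Igf2 -0.053, Mtor -0.087 for the sedentary genotype difference, Igfbp5 -0.036 for training in labelled WT. With GC and length correction, reversed values were Mstn 0.12, Igf2 -0.029 for the interaction, Fst 0.031 for the trained genotype difference, Acvr2b 0.022, Igfbp5 -0.045 for training in labelled WT, Igfbp5 -0.025 for training in labelled strNrip1-/-. With leaving out the 3 adipocyte-marked libraries, reversed values were Mstn 0.095, Igf1r 0.13 for the interaction, Fst 0.17 for the trained genotype difference, Fst -0.15, Igfbp5 -0.10 for training in labelled WT, Acvr2b -0.0045, Igf1 -0.090, Mtor -0.026 for the sedentary genotype difference, Smad3 0.11, Igfbp5 -0.038 for training in labelled strNrip1-/-. With rescaling to the same nuclear sum, reversed values were Fst 0.015, Igfbp5 0.016 for the trained genotype difference, Igf1r 0.022, Igfbp5 0.041 for the sedentary genotype difference, Igfbp5 -0.0025 for training in labelled strNrip1-/-, Igfbp5 -0.024 for the interaction. With quantile normalization, reversed values were Acvr2b 0.0086 for training in labelled WT, Igf1r 0.014, Igfbp5 -0.023 for the interaction, Igfbp5 -0.0038 for training in labelled strNrip1-/-. With leaving out the 3 slow-fiber-marked libraries, reversed values were Acvr2b 0.18, Acvr1b -0.17, Igf1 0.32 for training in labelled WT, Mtor -0.078 for training in labelled strNrip1-/-. With single libraries left out, lowest to highest values that spanned 0 are given next. For the sedentary genotype difference these were Acvr2b -0.0068 to 0.22, Igf1 -0.090 to 0.53, Igf1r -0.13 to 0.043, Igf2 -0.00061 to 0.25, Igfbp5 -0.13 to 0.12, Mtor -0.098 to 0.27. For the trained genotype difference these were Fst -0.12 to 0.17, Igf1 -0.49 to 0.096, Igfbp5 -0.14 to 0.090. For training in labelled WT these were Fst -0.15 to 0.14, Acvr2b -0.21 to 0.086, Acvr1b -0.11 to 0.28, Igf1 -0.36 to 0.23, Igf2 -0.15 to 0.036, Igfbp5 -0.10 to 0.16. For training in labelled strNrip1-/- these were Acvr2b -0.030 to 0.52, Smad3 -0.11 to 0.045, Igf2 -0.20 to 0.10, Igfbp5 -0.090 to 0.12, Mtor -0.078 to 0.28. For the interaction these were Mstn -0.17 to 0.033, Acvr1b -0.16 to 0.23, Igf1r -0.14 to 0.064, Igf2 -0.11 to 0.19, Igfbp5 -0.14 to 0.13.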

Other observations

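Outside the genes named by the rule, 2 pathway genes, Ddit4 and Igfbp2, were picked out after their values were seen. Ddit4 (ENSMUSG00000020108) encodes REDD1, a stress-induced inhibitor of mTOR complex 1. It was at 11.7, 9.34 and 10.1 FPKM in WT sedentary and at 8.92, 8.53 and 15.7 in strNrip1-/- sedentary libraries. WT trained libraries held 25.3, 66.0 and 66.1 FPKM, and strNrip1-/- trained libraries 35.9, 28.3 and 23.1. Every trained library was above every sedentary library in both labelled genotypes, where groups without overlap in either direction made up 14.3% of all tested genes in labelled WT and 16.9% in labelled strNrip1-/-. The training difference was 2.16 on the log2 scale in labelled WT (CI 1.41 to 2.92, limma adjusted p = 0.0866) and 1.39 in labelled strNrip1-/- (CI 0.63 to 2.14, adjusted p = 0.210), so neither was called, and the interaction was -0.77 (CI -1.84 to 0.29, adjusted p = 0.721). The trained genotype difference was -0.74 (CI -1.49 to 0.02, limma adjusted p = 0.250). Without WT trained replicate 1 the WT training difference was 2.62 (limma adjusted p = 0.00428), and the trained genotype difference was -1.19 (adjusted p = 0.0309).

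Igfbp2 encodes an IGF binding protein. Its WT sedentary libraries held 2.83, 2.23 and 4.67 FPKM and its WT trained libraries 1.94, 0.282 and 0.501. In strNrip1-/- libraries it was at 2.66, 3.56 and 3.88 FPKM sedentary and at 1.42, 1.64 and 0.869 trained. With all libraries the training difference was -1.54 in labelled WT (limma adjusted p = 0.402) and -1.11 in labelled strNrip1-/- (adjusted p = 0.303), neither called. Without WT trained replicate 1 it was -2.03 in labelled WT and called (limma adjusted p = 0.0364). In labelled WT trained muscle both genes were more alike in replicates 2 and 3 than in replicate 1.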
